A study of Mus musculus with 6 samples.

Results

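Malat1 and 7 further long noncoding RNAs (lncRNAs) that are known mainly from the nucleus, namely Neat1, Meg3, Rian, Mirg, Miat, Snhg11 and Kcnq1ot1, were followed through 6 single olfactory sensory neurons, which sense odours in the lining of the nose. All 8 were taken by name from the 55341 genes of the count table, and each name matched 1 row. The members were chosen by name with earlier results of these counts known, so their levels and their relation to the mt- share are a description, with no test. The neurons came from wild-type C57BL/6 mice aged 6 weeks, and each was frozen after a physiological recording and made into its own CEL-Seq2 library. All cells, here called cells 1 to 6, form 1 group without a treated or control arm. The labels name no animals, so the cells count as 1 sample, and differences between them carry counting error but no replicate check.

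An lncRNA is a long transcript without a known protein product. Many lncRNAs stay in the nucleus, where they build nuclear bodies or act on the chromosome that made them. Malat1 sits in nuclear speckles, the stores of splicing factors, and Neat1 is the scaffold of paraspeckles, bodies that hold back RNA-binding proteins. Miat, also called Gomafu, forms its own speckle-like spots in neurons. Meg3, Rian and Mirg are read from the maternal chromosome at the imprinted Dlk1-Dio3 region, where Rian is a host of snoRNAs and Mirg of microRNAs. Kcnq1ot1 is read from the paternal chromosome inside the Kcnq1 gene and silences its neighbours in cis. Snhg11 is a snoRNA host gene known from neurons. Transcripts of the mitochondrial genome, whose names start with mt-, lie outside the nucleus, so their share of the counts is the measure of cytoplasmic RNA used here.

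Totals ran from 8613 counts in cell 1 to 122546 in cell 3, with 34478, 60902, 22525 and 11725 in cells 2, 4, 5 and 6. A single count was worth 116 CPM (the scaled share of a cell's total count) in cell 1 and 8.16 CPM in cell 3. All levels are in this unit unless stated otherwise. Markers of mature olfactory neurons were counted for 11 of 11 genes in each of cells 1 to 5 and for 6 of 11 in cell 6. They summed to between 16515 and 31662 CPM. Markers of basal cells had 0 counts for 4 of 4 genes, and immune markers had 1 count for 1 of 5 genes. Gland markers, by contrast, summed to between 0 CPM in cell 6 and 19839 CPM in cell 2, and red blood cell markers to between 171 CPM in cell 6 and 12610.4 CPM in cell 4.

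The annotated 3′ ends and encoded runs of A bear on where an oligo(dT) primer could start, since CEL-Seq2 primes RNA at runs of A. Reads lie mainly next to that point. Malat1 is known to lack a poly(A) tail, because RNase P cuts its end and a triple helix closes it, whereas the short Neat1 transcript is polyadenylated. The annotated end of Malat1 need not be the cut end of its RNA. The lines below give the last 50 bases of the longest annotated transcript of each gene, 5′ to 3′ in GENCODE M21 on GRCm38, with the poly(A) signal AATAAA in capitals. For Neat1 the short transcript is added, and for Snhg11, which this annotation lists as protein coding, the last 30 bases are given.
Malat1, chr19:5795690-5795739, minus strand: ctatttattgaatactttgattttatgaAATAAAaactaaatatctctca
Neat1, short transcript, chr19:5842307-5842356, minus strand: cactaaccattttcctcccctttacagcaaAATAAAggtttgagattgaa
Neat1, long transcript, chr19:5824708-5824757, minus strand: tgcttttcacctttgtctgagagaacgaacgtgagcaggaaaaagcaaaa
Miat, chr5:112213228-112213277, minus strand: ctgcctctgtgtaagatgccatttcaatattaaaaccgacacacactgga
Meg3, chr12:109571677-109571726, plus strand: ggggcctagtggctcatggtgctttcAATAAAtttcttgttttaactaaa
Rian, chr12:109654960-109655009, plus strand: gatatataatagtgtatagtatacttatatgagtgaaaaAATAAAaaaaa
Mirg, chr12:109749409-109749458, plus strand: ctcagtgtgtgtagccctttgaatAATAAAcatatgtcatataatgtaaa
Kcnq1ot1, chr7:143203458-143203507, minus strand: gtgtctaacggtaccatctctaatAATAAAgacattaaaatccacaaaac
Snhg11, chr2:158386116-158386145, plus strand: gaaccacaaAATAAAcactgtcttccttaa
The signal AATAAA, searched on the transcript strand alone, was found in the last 50 bases of the longest transcript in 6 of the 8 genes, the exceptions being the long Neat1 transcript and Miat. Among 13359 annotated lncRNA genes, 29.8% hold it there. A match is a description of these letters and not a used site.

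The 3 lncRNAs with most counts differed sharply in their encoded runs of A. The next lines give the longest run of A in each, in capitals, with 10 bases on either side.
Malat1, chr19:5795978-5796009, minus strand: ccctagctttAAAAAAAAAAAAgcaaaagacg
Neat1, long transcript, chr19:5835924-5835950, minus strand: cctggactatAAAAAAAccttcatgag
Kcnq1ot1, chr7:143226935-143226995, minus strand: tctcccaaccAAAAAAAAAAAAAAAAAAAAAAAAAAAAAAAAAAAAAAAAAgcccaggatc
Malat1, of 6983 bases, has a single run of at least 8 A, of 12 bases, ending 298 bases before its annotated 3′ end. The place of the RNase P cut relative to this run and to the annotated end was not examined. The long Neat1 transcript, of 20771 bases, has no run of 8, its longest being 7. Kcnq1ot1, a single exon of 93092 bases, has 30 such runs, the longest of 41 bases. Of the lncRNA genes with a longest transcript of at least 5000 bases, 62.9% have a run of 8 or more A and 30.5% one of 12 or more. Meg3, Rian and Snhg11 have 7, 2 and 3 runs of at least 8 A, and Mirg and Miat none. These numbers of runs are not corrected for transcript length.

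**Figure D1:**
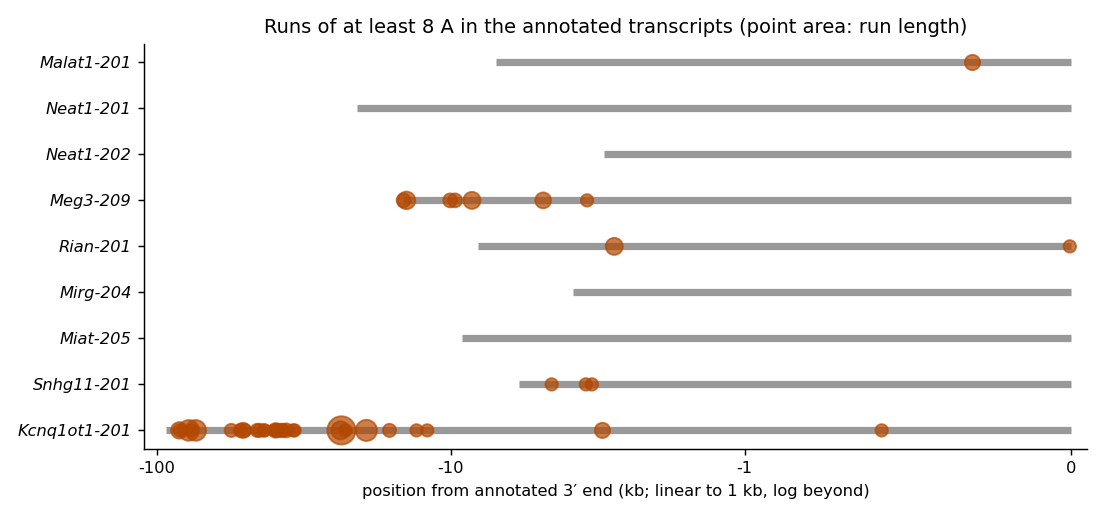
Annotated transcripts of the 8 lncRNAs as grey bars, drawn from their 3′ end at 0 (horizontal axis in kb, linear to 1 kb and logarithmic beyond), with each run of at least 8 A as a point whose area grows with its length. Malat1 has 1 run near its annotated end, Kcnq1ot1 has 30 spread over its length, and both Neat1 transcripts have none.

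Of the 8 lncRNAs, 6 had a count in at least 1 cell and 2, Malat1 and Neat1, in all 6 cells. For comparison, 29.8% of all genes in the table and 15.3% of annotated lncRNA genes had a count in any cell, and 1.5% of all genes and 0.0973% of lncRNA genes in all 6. The 8 lncRNAs together had 19, 129, 145, 83, 188 and 7 counts in cells 1 to 6, which are 2206, 3742, 1183, 1363, 8346 and 597 CPM. The median share of a cell's counts was 0.178%. Cell 5 stood highest, 2.23 times above cell 2 (95% interval of the ratio 1.77 to 2.81), and cell 2 was 1.70 times above cell 1 (1.04 to 2.91). The intervals of the remaining neighbours, cells 1, 4, 3 and 6 in falling order, included 1. Among those cells that were not neighbours, cell 1 was above cell 3 (1.86, 1.09 to 3.02) and cell 6 (3.695, 1.49 to 10.4). Cell 4 was above cell 6 (2.28, 1.06 to 5.85).

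Malat1 had the most counts and separated the cells most clearly, with cell 5 far above cell 4. The gene lies on the minus strand of chromosome 19 at 5795690 to 5802672 in GRCm38 and has 4 annotated transcripts. Malat1 had 17, 119, 92, 13, 139 and 5 counts in cells 1 to 6, or 1974, 3451, 751, 213, 6171 and 426 CPM. Cells 5, 2 and 1 were high, and cells 3, 6 and 4 were low. The exact 95% Poisson interval was 5188 to 7286 CPM in cell 5 and 114 to 365 CPM in cell 4, so these did not overlap, and the ratio of cell 5 to cell 4 was 28.9 (16.4 to 55.7). The steps from cell 5 to 2, from 2 to 1 and from 1 to 3 each exceeded counting error, with ratios of 1.79 (1.39 to 2.3), 1.75 (1.05 to 3.10) and 2.63 (1.47 to 4.44). Among the 3 low cells, cell 3 was above cell 4 (3.52, 1.96 to 6.85), while cell 6, with 5 counts, differed from neither beyond counting error. With DESeq2 size factors cell 3 stood above cell 1 and cell 4 above cell 6, while cells 5 and 2 kept the top places under each of the 4 scalings tried.

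By rank, Malat1 was the 15th gene in cell 5 and the 29th in cell 2, but the 809th in cell 4. Its coefficient of variation over the 6 cells was 1.07 and fell only to 1.05 once the Poisson variance was taken off. The median of that corrected value over the 694 genes that reach a mean of 200 CPM was 0.522 and the 90th percentile 1.07, and 10.8% of those genes varied more than Malat1. Malat1 made up 92.2% of the counts of the 8 lncRNAs in cell 2 (95% Clopper-Pearson interval 86.2% to 96.2%) but 15.7% in cell 4 (8.61% to 25.3%). In cell 4, therefore, the sum of 83 counts was carried by other members, with 29 counts of Neat1, 14 of Meg3, 13 of Snhg11 and 13 of Kcnq1ot1.

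Neat1 followed another order of cells than Malat1. It is the neighbour of Malat1 on the minus strand of chromosome 19 (5824708 to 5845478). Counts per gene do not separate the short and long Neat1 transcripts, and the exon length used, 20771 bases, is that of the long one. Neat1 had 1, 5, 37, 29, 27 and 2 counts in cells 1 to 6, or 116, 145, 302, 476, 1199 and 171 CPM. Cell 5 was again highest, 2.52 times above cell 4 (1.43 to 4.41), whereas the intervals between each of the lower neighbours included 1. Among the lower cells that were not neighbours, cell 4 was above cell 2 (3.28, 1.26 to 10.9). The ratio of Malat1 to Neat1 counts was 23.8 in cell 2 (9.92 to 74.6), 5.15 in cell 5 (3.39 to 8.09) and 0.448 in cell 4 (0.214 to 0.890). Per kilobase of exon, median levels over cells were 195 CPM for Malat1 and 11.4 CPM for Neat1, although reads that start near a 3′ end do not grow with length. Over the 6 cells the levels of the pair had a Spearman's rho of -0.0286.

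Miat, the remaining nuclear body RNA, had 0 counts in every cell. It lies on the minus strand of chromosome 5 at 112213228 to 112229395. At 3 counts per cell this allows up to 24.5 CPM in cell 3 and 49.3 CPM in cell 4, but up to 348 CPM in cell 1 and 256 CPM in cell 6. Of the splicing factors known to bind Miat or to share its spots, 4 of 4 were counted. Sf1, the branch point binding protein, had a median of 219 CPM, and Srsf1 of 171 CPM, while Qk, which encodes Quaking, was counted in 2 cells. Celf3, a neuronal splicing factor, had 13 counts in cell 4 (213 CPM), 1 in cell 2 and 0 in the other 4 cells.

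**Figure D2:**
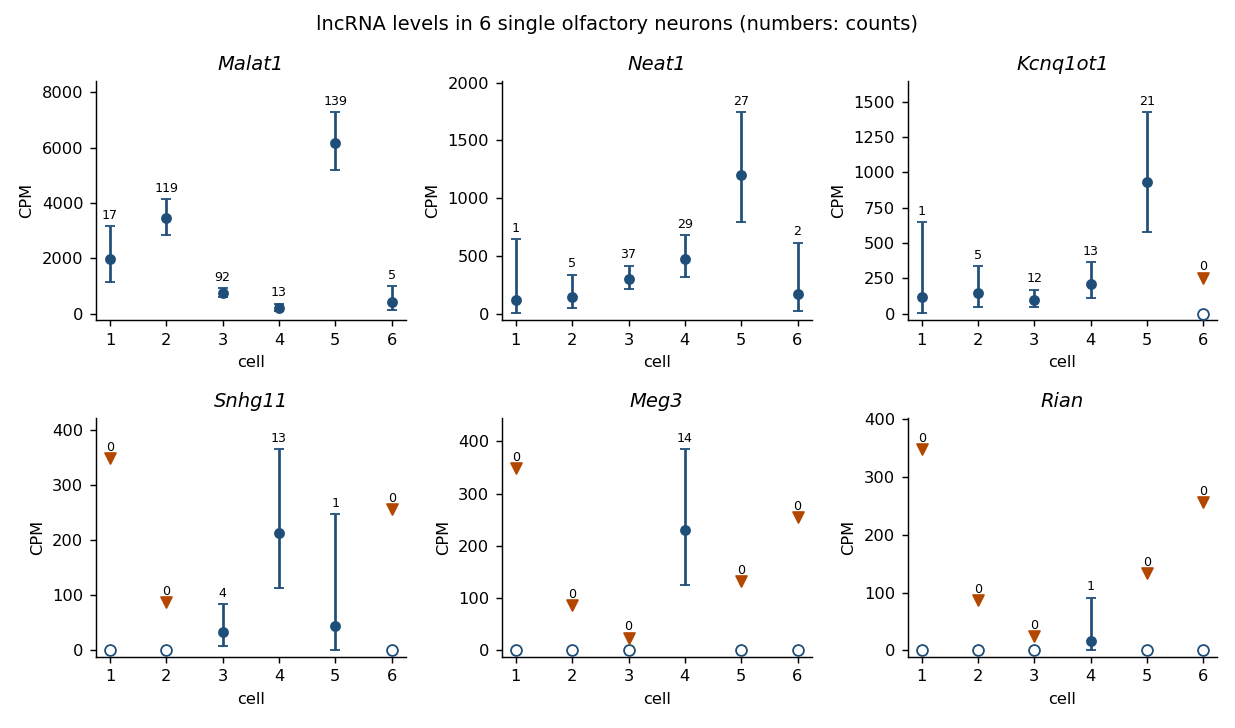
Level in CPM (vertical axis) of the 6 counted lncRNAs in cells 1 to 6 (horizontal axis), as filled points with exact 95% Poisson intervals and the count above each point. Open circles mark cells without a count and triangles the level that 3 counts would give there. Cell 5 is highest for Malat1, Neat1 and Kcnq1ot1, and cell 4 for Snhg11, Meg3 and Rian.

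Meg3 was found in cell 4 alone. The gene lies on the plus strand of chromosome 12 at 109541001 to 109571726, has 11 annotated transcripts, and encodes the best known maternal RNA of the Dlk1-Dio3 region. In cell 4 Meg3 had 14 counts, a level of 230 CPM (126 to 386), and 0 in the other 5 cells. The exact 95% interval of the ratio of cell 4 to another cell began at 6.67 for cell 3, 1.88 for cell 2 and 1.23 for cell 5. At the level of cell 4, 28.2 counts would fall in cell 3, 7.93 in cell 2 and 5.18 in cell 5, but only 1.98 in cell 1 and 2.70 in cell 6, where a lack of Meg3 was not detectable at this depth.

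The other RNAs of the same region were almost uncounted. Rian, at 109603940 to 109661716 downstream of Meg3 on the same strand, had 1 count, also in cell 4 (16.4 CPM). Mirg, at 109729764 to 109749460, had 0 counts in 6 of 6 cells. The coding genes of the region, Dlk1, Rtl1, Dio3 and Begain, had no count in any cell. The 21 microRNA genes and 15 snoRNA genes annotated inside the 8 lncRNAs had no counts, in libraries primed with oligo(dT). Of other imprinted lncRNAs, 2 of 6 were counted. Peg13 had 6 counts in cell 4 and 3 in cell 3, and Snhg14 had 4 counts in cell 4 and 1 each in cells 2 and 3.

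Snhg11 was also highest in cell 4. It lies on the plus strand of chromosome 2 at 158375638 to 158386145. Snhg11 counts numbered 13, 4 and 1 in cells 4, 3 and 5, for levels of 213, 32.6 and 44.4 CPM, and 0 in cells 1, 2 and 6. The ratio of cell 4 to cell 3 was 6.54 (2.02 to 27.5), while that of cell 4 to cell 5 had an interval that included 1 (4.81, 0.722 to 204). The sums of red blood cell markers, at 12610.4 CPM, and of immature neuron markers, at 2923 CPM, were likewise highest in cell 4. Of the genes past a mean of 10 CPM, 4 of 4 red blood cell markers were highest there, but only 2 of 5 immature markers. The immature sum in cell 4 was mostly Stmn2 (1708 CPM), while Gap43 and Stmn1 were highest in cell 6 and Dpysl3 in cell 5. The part of either list in the Meg3 and Snhg11 values was not tested. Other snoRNA host genes were low: 11 of the 15 found in the table were counted, none in all 6 cells, and Gas5 led them with a median of 78.3 CPM (0 to 133).

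Kcnq1ot1 was present in 5 of 6 cells and was by far highest in cell 5. It lies on the minus strand of chromosome 7 at 143203458 to 143296549, within Kcnq1. Kcnq1ot1 had 1, 5, 12, 13, 21 and 0 counts in cells 1 to 6, or 116, 145, 97.9, 213, 932 and 0 CPM. Cell 5 stood 4.37 times above cell 4 (2.09 to 9.49), and no lower neighbours differed beyond counting error. The lack of a count in cell 6 allows up to 256 CPM, above the level of cells 1 to 4, so a lower level there was not detectable at this depth. The strand setting of the counting is not given in the sources used here, and 121 bases of Kcnq1 exons overlap Kcnq1ot1. Kcnq1 itself had 1 count, in cell 3.

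Among the neighbours that Kcnq1ot1 is known to silence, Cdkn1c, a cell cycle inhibitor, had 2 counts over all cells, and Phlda2, Slc22a18 and Ascl2 had none. Cd81, a membrane protein at the edge of the region, was counted in every cell with a median of 593 CPM, and Tssc4 had 12 counts. On the opposite strand to Malat1, Gm37376 had 2 counts, in cell 5. These were the only genes overlapping a member, of 56, that had any count beside Kcnq1.

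Of the 8 lncRNAs, 5 reached a mean level of 10 CPM over the cells (Malat1, Neat1, Kcnq1ot1, Snhg11 and Meg3). Cell 5 held the highest level of 3 of these, and cell 4 of the other 2. Meg3 passed that mean through cell 4 alone, so its highest cell was fixed by the filter. Of all 9760 genes past that level, 21.3% were highest in cell 5 and 21.4% in cell 4. Transcripts for the proteins of the nuclear bodies that Malat1 and Neat1 belong to were also set beside these, and their order of cells depended on the scaling. In CPM, 5 of 10 paraspeckle protein genes past the same mean and 8 of 16 nuclear speckle and splicing genes were highest in cell 5. With DESeq2 size factors 3 of 10 and 3 of 16 were, as were 13.6% of all 9760 genes.

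The paraspeckle sum was 1277, 1189, 1436, 1675, 2974 and 938 CPM in cells 1 to 6, so cell 5 led in CPM, but with DESeq2 size factors cell 5 (2002) and cell 3 (2029) were level. Hnrnpk, an RNA-binding protein of paraspeckles and the highest of the list by median, had 666 CPM in cell 5 and 661 CPM in cell 3. Tardbp, which encodes TDP-43, stood at 799 CPM in cell 5 from 18 counts and at 139 CPM in the deeper cell 3 from 17. Sfpq, a core paraspeckle protein, reached 311 CPM in cell 5, with 81.6 CPM in cell 3, and Cpsf6, a cleavage factor subunit, 533 CPM in cell 5, with 261 CPM in cell 3. Of these 4 genes, Tardbp and Sfpq were highest in cell 5 under each of the 4 scalings, while Hnrnpk moved to cell 3 with TMM and DESeq2 and Cpsf6 with DESeq2.

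The speckle sum was 2206, 2088, 3664, 2611, 5017 and 1279 CPM in cells 1 to 6. Cell 5 was below cell 3 with TMM (5080 in cell 5 and 5317 in cell 3) and with DESeq2 (3377 in cell 5 and 5175 in cell 3). Son, a scaffold of nuclear speckles, had 1021 CPM in cell 5 and 841 CPM in cell 3 and was highest in cell 3 with TMM and DESeq2. Sf3b1, a core splicing factor, had 488 CPM in cell 5 and 506 CPM in cell 3. The splicing kinase gene Clk1 had 488 CPM in cell 5 and between 145 and 232 CPM elsewhere, and was highest in cell 5 under each of the 4 scalings. Srrm1, a splicing coactivator, had 355 CPM in cell 5 and 237 CPM in cell 3, and was highest in cell 3 with DESeq2. DESeq2 size factors lowered all levels of cell 5 by 0.57 and raised those of cell 3 by 0.50 on the log2 scale. Malat1, Neat1 and Kcnq1ot1 were highest in cell 5 under each of the 4 scalings.

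Polycomb and histone methyltransferase genes, whose proteins are known to bind Meg3 and Kcnq1ot1, were low, with 8 of 8 counted and none in all cells. Jarid2 led them, with levels of 938, 246 and 32.6 CPM in cells 6, 4 and 3 from 11, 15 and 4 counts. Of 9 other nuclear lncRNAs, 5 were counted. Firre had 14, 7 and 4 counts in cells 3, 4 and 5 and Tug1 had 5, 1 and 3 there, with 0 in cells 1, 2 and 6 for both. Xist had no count in any cell. Cytoplasmic lncRNAs were low: 2900097C17Rik had 58.0 to 171 CPM and was the only one of 4 in the table with a count in all cells. Of 9 other neural lncRNAs in the table, 5 were counted, led by 1700020I14Rik with a median of 87.1 CPM.

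The share of mt- counts, set against the lncRNAs as a view of cytoplasmic against nuclear capture, was 14.4%, 11.7%, 6.47%, 4.40%, 7.62% and 12.3% in cells 1 to 6. It leaves out 10 pseudogenes with at least 25% of their 31-base stretches found in mt- genes. These took another 7.02%, 4.35%, 3.69%, 1.87%, 3.83% and 7.26% of the counts, and their share had a rho of 0.943 with the mt- share. The sum of the 8 lncRNAs had a Spearman's rho of 0.0286 with the mt- share over the 6 cells. The sign of that value was not stable: it was -0.429 with TMM and with DESeq2 scaling, and between -0.2 and 0.5 with 1 cell left out. There were 10.9 counts of the 8 lncRNAs per 100 mt- counts in cell 5 and 0.484 in cell 6, and between 1.53 and 3.21 in cells 1 to 4. Members went different ways. Malat1 had a rho of 0.314 with the mt- share, Neat1 of -0.771, Kcnq1ot1 of -0.429, Meg3 of -0.655 and Snhg11 of -0.880. The Meg3 value was set by its counts falling in cell 4 alone, and Rian, with 1 count there, had the same -0.655. Snhg11 had 0 counts in cells 1, 2 and 6. At the level of cell 4, only 1.84 and 2.50 Snhg11 counts would fall in cells 1 and 6.

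The mt- share itself fell with the total of a cell, at a rho of -0.886, so depth and mt- share cannot be told apart here. The rho of the members with the total was 0.486 for Neat1, 0.143 for Kcnq1ot1, 0.577 for Snhg11, 0.393 for Meg3 and -0.257 for Malat1. Each was smaller in size than that with the mt- share, but over 6 cells this order does not separate depth from mt- share. With 1 cell left out, the rho with the mt- share ran from -0.2 to 0.6 for Malat1, -0.9 to -0.6 for Neat1 and -0.8 to -0.2 for Kcnq1ot1. Both Meg3 values were set by cell 4 alone. The median rho with the mt- share was -0.304 across the 9760 genes that reach a mean of 10 CPM, with a 10th percentile of -0.812. Among the 694 genes that reach a mean of 200 CPM, as Malat1, Neat1 and Kcnq1ot1 do, the median was 0.0286 and the 10th percentile -0.657. Neat1 lay below that percentile and Kcnq1ot1 above it. Kcnq1ot1 reaches that mean, at 251 CPM, largely through the 932 CPM of cell 5, its median being 131 CPM. Of the 5 lncRNAs past 10 CPM, 1, Snhg11, had a rho of -0.8 or lower in CPM, as had 12.4% of all such genes. None had 0.8 or higher, as had 0.912% of all. With TMM and with DESeq2 scaling the rho of Neat1 was -0.829, also below -0.8. The share of all genes below -0.8 was not computed with these scalings. Leaving out cells 1 and 6, which have fewer than 20000 counts, gave -0.4 for Neat1, 0.8 for Malat1 and 0 for Kcnq1ot1 over 4 cells. Leaving out cells 1 and 4, whose mt- shares lie farthest from the median, gave -0.4 for Malat1 and -0.6 for Neat1. The points share the total by which each is divided, and taking mt- counts out of that total left the rho of all 4 quantities (the sum, Malat1, Neat1 and Kcnq1ot1) as it was.

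**Figure D3:**
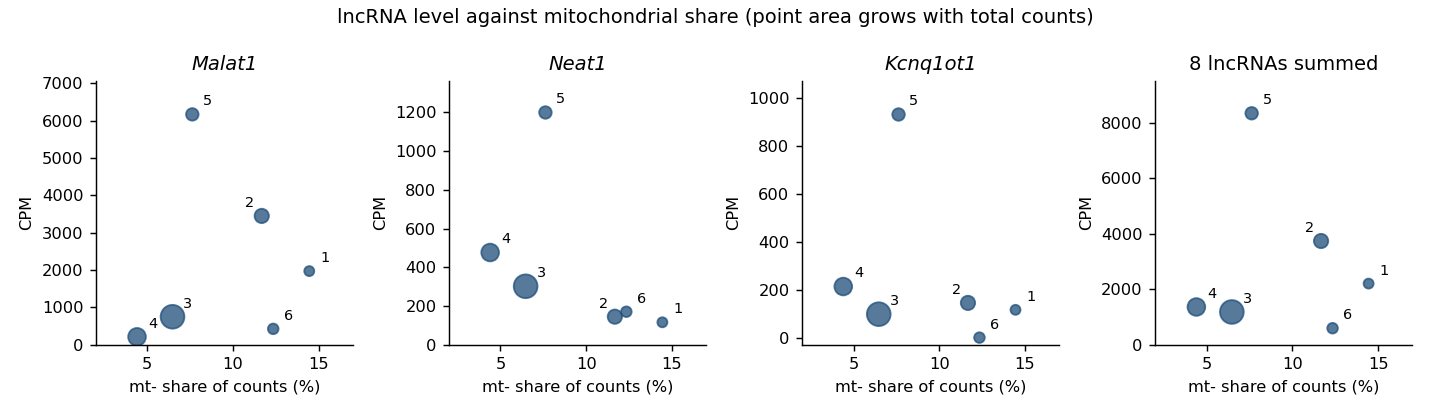
Level in CPM (vertical axis) of Malat1, Neat1, Kcnq1ot1 and the sum of the 8 lncRNAs against the share of mt- counts in percent (horizontal axis), 1 numbered point per cell with an area that grows with its total. Cells 1 and 6 have similar mt- shares of 14.4% and 12.3% but 1974 and 426 CPM of Malat1, and cell 5 lies above all others in each panel.

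**Figure D4:**
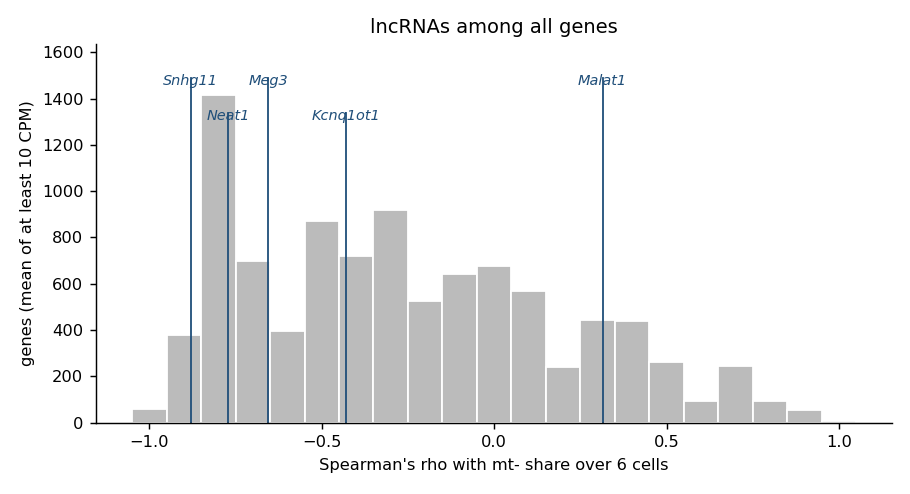
Number of genes past a mean of 10 CPM (vertical axis) by their Spearman's rho with the mt- share over 6 cells (horizontal axis), with lines at the 5 lncRNAs past that mean. Snhg11, Neat1, Meg3 and Kcnq1ot1 lie in the negative part, where most genes lie, and Malat1 at 0.314.

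The mitochondrial measure was not uniform, and its parts related differently to the lncRNAs. The 13 mt- mRNAs took 3.02% to 10.9% of the counts and were highest in cells 6 and 1, whereas the 2 mt- rRNAs took 1.09% to 4.40% and were highest in cells 2 and 1. In cell 6 the mRNAs took 10.9% and the rRNAs 1.36%, and in cell 2 they took 7.25% and 4.40%. The sum of the 8 lncRNAs had a rho of -0.143 with the mt- mRNA share and 0.771 with the mt- rRNA share. For Malat1 the values were 0.2 and 0.6, for Neat1 -0.657 and -0.429, and for Kcnq1ot1 -0.543 and 0.486. Set against cytosolic ribosomal protein genes (84 genes, 1.12% to 1.83% of the counts), the values were 0.257 for the sum, 0.0286 for Malat1 and -0.714 for Neat1.

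Malat1 tracked Gm42418, an annotated lincRNA on chromosome 17 (39846958 to 39848788) that is known to overlap ribosomal RNA sequence. Gm42418 had 74, 731, 265, 105, 308 and 33 counts in cells 1 to 6, or 8592, 21202, 2162, 1724, 13674 and 2814 CPM. Of the 4 listed genes that overlap rRNA sequence, 3 were counted, and Gm42418 alone was counted in all cells. Cells 2, 5 and 1 were the 3 highest for it, as they were for Malat1, and the rho between the genes was 0.886. Gland markers summed to 6966, 19839, 930, 361, 5239 and 0 CPM, so cells 2, 1 and 5 were also highest for these, and their rho was 0.771 with Malat1 and with Gm42418 alike. The part of RNA from other cells in the Malat1 counts was not tested. Neat1 had a rho of -0.429 with the gland sum.

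By Pearson's r of log2(CPM + 10) over the 6 cells, Gm42418 was among the 5 genes most like Malat1 of 457 compared (r = 0.927). The others were Ndufa4 (0.952) and Cox6a1 (0.915), which encode subunits of the respiratory chain, BC031181 (0.929) and the pseudogene Gm9843 (0.926). Ndufa4 had 2 to 19 counts per cell and BC031181 1 to 13, so their levels are loosely known. The least alike were Tuba1c, an alpha tubulin (-0.945), Gm43333 (-0.913), the pseudogene Gm3272 (-0.910), the calcium-binding Tesc (-0.876) and the granule protein Scg3 (-0.873). Gm43333, at chromosome 5, 104070064 to 104072325, was highest in cell 4, at 13284 CPM, and lowest in cell 1, at 929 CPM. These lists rank 6 points for each gene and carry no test.

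**Figure D5:**
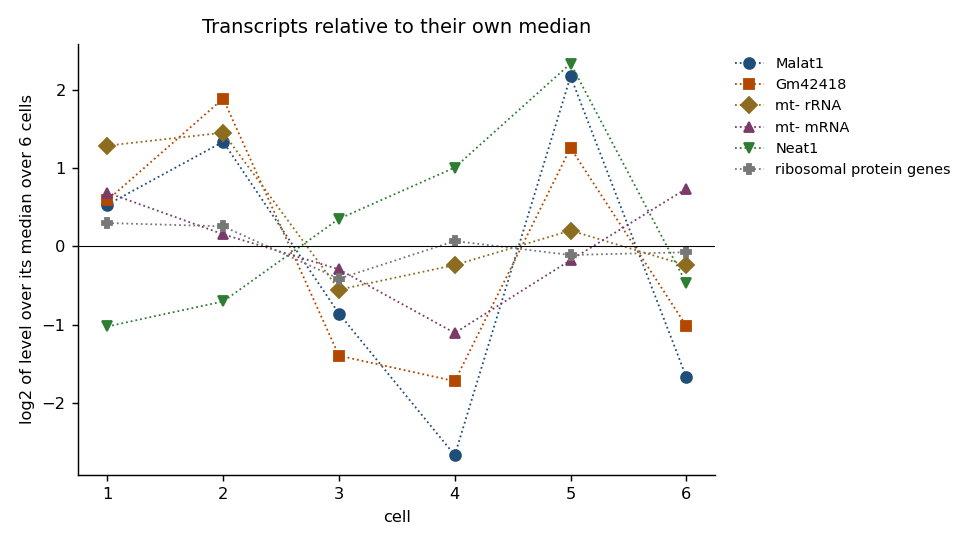
Level of Malat1, Gm42418, mt- rRNA, mt- mRNA, Neat1 and cytosolic ribosomal protein genes in cells 1 to 6 (horizontal axis), each as log2 of its share of counts over its own median over the 6 cells (vertical axis); dotted lines only join the points of a transcript. Malat1 and Gm42418 are above their medians in cells 1, 2 and 5 and below in cells 3, 4 and 6, while Neat1 is above its median in cells 3, 4 and 5.

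Among the 13359 annotated lncRNA genes, Malat1 ranked 4th by median CPM, Neat1 9th and Kcnq1ot1 14th, in CPM that are not corrected for length. The rows ahead of Malat1 were Gm26870 on chromosome 9 (median 9565 CPM), Gm42418 (5703 CPM) and Gm43333 (4550 CPM). Gm10076 and Tmem74bos followed below Malat1 with 659 and 552 CPM. Taken without the 8 lncRNAs and the rRNA-overlapping rows Gm42418 and Gm26917, lncRNA genes took 4.26%, 5.70%, 4.39%, 6.10%, 3.23% and 3.17% of the counts in cells 1 to 6. That share was lowest in cells 6 and 5 but leaned on single rows. Of its counts, Gm26870 gave 255 of 367 in cell 1 and 145 of 728 in cell 5. Gm43333 gave 809 of 3713 in cell 4. The order of cells without these rows was not examined, so the share says little about cell 5.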

How the data were processed

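Gene counts of 6 single-cell CEL-Seq2 libraries were used as the authors deposited them: raw counts per gene symbol, 55341 genes in 1 column per cell. Per the labels, only the second read was aligned, its name carrying the cell barcode and unique molecular identifier. CASAVA, Bowtie2 2.3.4, HTSeq and mm10 were used per the submitters' processing notes. Not given in the sources used here were the annotation, the strand setting and whether identifiers were collapsed, so a count may be a read, and intervals and floors, which cover counting error only, may be too narrow.

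All 55341 symbols matched GENCODE M21 (GRCm38), which gave positions, exons, the 13359 lncRNA genes and transcript sequences. CPM was computed over all counts of a cell, with exact 95% Poisson intervals, exact Clopper-Pearson intervals for shares, exact conditional binomial intervals for ratios, and a floor of 3 counts. Relations over cells are Spearman's rho, given without p-values, since the 6 cells are 1 sample and no test between them was possible. The rho and the corrected coefficient of variation were tested on simulated data. Python 3.11.15, scipy 1.17.1, edgeR 4.0.16 and DESeq2 1.42.0 were used, the last 2 for scaling factors only.

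The members, 12 gene lists and 7 marker lists were chosen with earlier results of these data known. From each list the text names, in order of median CPM, up to 4 of the highest members, and those needed to describe counts of 5 or fewer. It also names the 5 genes most and least like Malat1 (mean of at least 200 CPM, counted in every cell, mt- genes left out) and the 5 other lncRNA genes of highest median CPM. Alternatives were other scalings, mt- measures, pseudocounts of 1 and 50 CPM, filters, thinning to 8613 counts in 20 draws, and each cell left out. The step without cells under 20000 counts, the use of Gm42418 as a measure and the scalings of gene lists were added after the data were seen.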

Additional observations from a re-analysis of the deposited data

Results flagged for a closer look

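Of 46 quantities examined over the 6 cells, 15 had 1 cell whose gap to the nearest other cell exceeded Dixon's 95% limit for 6 values, set as a share of the whole range. Chance alone flags about 1 in 20 groups, and counts with many zeros, where a single count sets a cell apart, are flagged readily. Of the 14 such quantities in CPM, 11 still stood apart with TMM and 8 with DESeq2 size factors, both without Neat1. No explanation was tested for any of these values.

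Among the lncRNAs, cell 5 lay far above the rest for Neat1 (1199 CPM, the next cell at 476 CPM) and Kcnq1ot1 (932 CPM, next 213 CPM). Cell 4 lay far above for Meg3 (230 CPM), Snhg11 (213 CPM, next 44.4 CPM) and Rian, where 16.4 CPM is 1 count. The 8 lncRNAs came to 10.9 counts per 100 mt- counts in cell 5, with 3.21 in the next cell. Malat1 was not among these.

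Among the gene lists, cell 5 stood apart in CPM for transcripts of paraspeckle proteins (2974 CPM, next 1675 CPM), but not with TMM, and with DESeq2 size factors cell 3 was highest. Cell 4 stood apart for other imprinted lncRNAs (164 CPM, next 32.6 CPM) and for other neural lncRNAs (443 CPM, next 222 CPM). Cell 6 stood apart for coding genes of the Kcnq1 region, mostly Cd81 (1791 CPM, next 767 CPM). Of the marker lists, sustentacular cells (1276 CPM) and glands (19839 CPM) were far highest in cell 2. Red blood cell markers were far highest in cell 4 (12610.4 CPM), and the 8.16 CPM of immune cell markers in cell 3 is 1 count of Cd74. Tuba1c, the gene least like Malat1, stood at 690 CPM in cell 4, with 212 CPM in the next cell.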

How the results depend on the processing

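The relation of the lncRNAs to the mt- share was the part most open to processing. For the sum of the 8, a rho of 0.0286 became -0.429 with edgeR TMM and with DESeq2 scaling, -0.143 against mt- mRNA, 0.771 against mt- rRNA and -0.4 without cells 1 and 4; Pearson's r was -0.0396, -0.0399 and -0.0382 at pseudocounts of 10, 1 and 50 CPM. For Malat1, 0.314 became -0.143 with DESeq2 scaling and -0.4 without cells 1 and 4. For Neat1, -0.771 became -0.829 with TMM and with DESeq2 scaling, -0.657 against mt- mRNA, -0.429 against mt- rRNA and -0.6 without cells 1 and 4. For Kcnq1ot1, -0.429 became -0.657 with TMM and with DESeq2 scaling, 0.486 against mt- rRNA and 0.0857 against ribosomal protein genes. In 2 alternatives chosen after seeing the data, leaving out cells 1 and 6 gave 0.6 for the sum, 0.8 for Malat1, -0.4 for Neat1 and 0 for Kcnq1ot1, and the Gm42418 share in place of the mt- share gave 0.714, 0.886, -0.314 and 0.257. Leaving out 1 cell at a time gave -0.2 to 0.5 for the sum, -0.2 to 0.6 for Malat1, -0.9 to -0.6 for Neat1 and -0.8 to -0.2 for Kcnq1ot1. The cause of these changes was not tested. The corrected coefficient of variation ran from 0.906 to 1.29 for Malat1, from 0.410 to 1.13 for Neat1 and from 0.120 to 1.40 for Kcnq1ot1, the lowest values of Neat1 and Kcnq1ot1 being those without cell 5. The ratio of the Malat1 to the Neat1 median, 5.77 in CPM, was 17.2 per kilobase of exon. Of the 2 lncRNAs counted in all 6 cells, 1 reached 3 counts in each and 0 reached 10. Genes with a rho of -0.8 or lower numbered 1211, against 377 at a mean of 50 CPM and 1945 with no filter beyond 1 count. In alternatives chosen after seeing the data, the log2 ratio of cell 5 to cell 3 was -0.0189 with DESeq2 for paraspeckle genes (1.05 in CPM), and -0.0657 with TMM and -0.62 with DESeq2 for speckle genes (0.45 in CPM). No paired analysis was possible because the 6 cells form 1 group. Depth limits the low members: 3 counts are 348 CPM in cell 1 and 24.5 CPM in cell 3.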
